A study of Homo sapiens with 6 samples.

Results

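The genes of cholesterol synthesis, uptake and efflux were followed in HaCaT cells, keratinocytes of human skin that became immortal without an added gene, after 12 h of negative pressure. The set is a list of 29 genes named by function. Of these, 27 were measured by a probe set that names the gene alone, out of 19775 genes measured that way. FDFT1 was not analysed here, and CYP51A1 was covered here by 2 probe sets annotated to another gene as well, so neither was given a value. Each gene was represented by its brightest probe set, the one with the highest mean over the 6 arrays, and values are on the log2 scale. The 3 cultures under a negative pressure gradient of 125 mmHg (NP) were compared with the 3 cultures at ambient pressure (AP), all in serum-containing medium. The model is 1 cell line grown without other skin cells, and serum supplies lipoproteins to both groups.

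Cells make cholesterol from acetyl units through the mevalonate pathway, which yields isoprenoid building blocks, and then through the sterol branch that closes and trims the ring. When sterols in the endoplasmic reticulum run low, the escort protein SCAP carries the precursor encoded by SREBF2 to the Golgi, where it is cut to an active transcription factor. INSIG proteins hold the SCAP complex back when sterols are plentiful. When oxysterols accumulate, liver X receptors raise genes for cholesterol export and MYLIP, a ubiquitin ligase that sends lipoprotein receptors for degradation. In epidermis, cholesterol is 1 of the lipids of the barrier.

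Of the 27 genes, 1 rose under negative pressure and none fell at an adjusted p under 0.05 (limma, Benjamini-Hochberg over all 19775 genes), while 8 had an unadjusted p under 0.05 (11.7% of all genes). The gene that rose was MYLIP, 1.64-fold. Over all genes, 182 passed, which is 0.92% (120 higher, 0.607%, and 62 lower, 0.314%). With the same-numbered cultures treated as pairs (the replicate block), 2 of the 27 passed: MYLIP, and HMGCS1, which was 1.84-fold lower and encodes the enzyme that makes HMG-CoA at the entry to the pathway. The block called 4.94% of all genes (2.87% higher, 2.06% lower), and without it 1.51% of the genes with a mean above the median gene mean passed. The median log2 fold change of the 27 genes was 0.09, against 0.01 over all genes, and 17 of the 27 lay above 0, as did 53.4% of all genes. When each gene's probe sets were averaged, the median was 0.033 and 15 lay above 0. When the most variable probe set stood for each gene, it was 0.018 and 14 lay above 0. The 8 measured enzymes of the mevalonate arm had a median of -0.03, with 4 above 0, and the 10 of the sterol branch one of 0.11, with 7 above 0.

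The culture itself was checked by marker genes. The 11 measured keratinocyte markers had gene means from 7.92 to 12.5 on the log2 scale. Their mean per array lay between 10.4 and 10.6 in NP cultures and between 10.3 and 10.4 in AP cultures. The means per array of the fibroblast, melanocyte, leukocyte and endothelial lists lay between 3.42 and 4.49 in all 6 arrays, and below the median gene mean of 4.997. Single members stood above that median: COL1A1 at a mean of 6.78, MITF at 6.08 and PECAM1 at 5.04. The other measured members of these lists lay below it. Among the 25 measured markers of other cells, 1 passed: CDH5, the endothelial cadherin, read 4.25, 3.92 and 3.86 in NP cultures, against 4.90, 4.72 and 4.81 in AP cultures, without overlap. It averaged 4.01 ± 0.21 in NP cultures and 4.81 ± 0.09 in AP cultures (SD, n = 3 each) and fell by 0.80 on the log2 scale (limma adjusted p = 0.0325), and its part in the results below was not tested. The replicate 3 arrays of both groups stood apart from the other 4 on the first principal component, with 42.2% of the variance. No gene list can tell fewer cells expressing a gene from less RNA per cell in such bulk cultures.

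The starts of 4 genes are shown because they carry the results below: HMGCS1 and INSIG1, which stood on opposite sides of 0, MYLIP, which rose, and SREBF2, which encodes the regulator of the pathway. Each is the 250 bases before the RefSeq transcription start (GRCh38.p14; the start furthest upstream where a gene has several). They lie at chr5:43313413-43313662 on the minus strand, and at chr7:155297628-155297877, chr6:16128836-16129085 and chr22:41832855-41833104 on the plus strand. Capitals mark matches on either strand to the CCAAT box, the GC box GGGCGG, the TATA box TATAAA and the sterol response consensus TCACNCCAC.
HMGCS1: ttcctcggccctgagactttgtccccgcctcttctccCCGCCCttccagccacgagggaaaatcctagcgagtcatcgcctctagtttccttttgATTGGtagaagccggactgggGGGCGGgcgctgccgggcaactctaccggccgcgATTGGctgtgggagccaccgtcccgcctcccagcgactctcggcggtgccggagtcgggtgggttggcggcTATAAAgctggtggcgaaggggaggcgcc
INSIG1: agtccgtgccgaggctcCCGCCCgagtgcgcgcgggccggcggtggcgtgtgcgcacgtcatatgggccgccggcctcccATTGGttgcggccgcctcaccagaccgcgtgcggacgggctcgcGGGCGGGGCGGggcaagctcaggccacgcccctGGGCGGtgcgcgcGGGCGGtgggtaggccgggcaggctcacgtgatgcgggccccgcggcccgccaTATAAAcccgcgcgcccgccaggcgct
MYLIP: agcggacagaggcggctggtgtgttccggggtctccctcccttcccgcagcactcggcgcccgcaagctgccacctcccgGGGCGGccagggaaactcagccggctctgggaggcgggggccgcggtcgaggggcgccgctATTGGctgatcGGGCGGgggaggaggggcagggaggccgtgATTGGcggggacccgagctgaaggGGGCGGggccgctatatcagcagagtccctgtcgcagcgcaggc
SREBF2: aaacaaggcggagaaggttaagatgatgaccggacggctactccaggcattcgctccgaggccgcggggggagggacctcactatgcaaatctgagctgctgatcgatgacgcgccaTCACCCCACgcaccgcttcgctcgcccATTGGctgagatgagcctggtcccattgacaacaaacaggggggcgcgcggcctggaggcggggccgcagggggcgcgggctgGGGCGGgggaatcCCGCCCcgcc

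HMGCS1 and INSIG1 each hold a TATA box, 29 to 24 and 27 to 22 bases before the start, and CCAAT boxes on the reverse strand. The sterol response consensus was found in the window of SREBF2 alone, 133 to 125 bases before the start, among the 25 listed genes with a RefSeq promoter. It occurs in 0.868% of the 27305 promoters of that length. CCAAT occurs in 15 of the 25 (60%) and in 33% of all promoters. The GC box occurs in 21 of the 25 (84%) and in 42.2% of all, and 2 of the matches in INSIG1 overlap by 1 base. TATAAA was found in HMGCS1, INSIG1 and ABCA1 (12%), against 11.2% of all. These are matches of letters in a short window, with base composition not taken into account, and not measured binding.

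Synthesis starts with the mevalonate arm, of which all 8 listed genes were measured. HMGCS1 read 5.88, 6.22 and 5.54 in NP cultures 1, 2 and 3, against 6.91, 6.93 and 6.44 in AP cultures 1, 2 and 3. The groups did not overlap, and replicate 3 was the lowest culture in each. The mean was 5.88 ± 0.34 in NP cultures and 6.76 ± 0.28 in AP cultures (SD, n = 3 each). The difference was -0.88 ± 0.20 on the log2 scale (SE; limma adjusted p = 0.0912, with the replicate block 0.00188). The differences between cultures of the same number were -1.03, -0.70 and -0.90, all below 0, though no label states that these cultures are pairs.

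The other probe set of HMGCS1 read 5.57, 5.80 and 5.84 in NP cultures, against 6.73, 6.83 and 6.50 in AP cultures. It fell by 0.95 ± 0.14 on the log2 scale (SE), or 1.93-fold, and passed in limma over all 54613 probe sets (adjusted p = 0.0303), where 0.48% of probe sets did. That call was lost when NP culture 1 or 2 or AP culture 1 or 2 was left out. The mean of both probe sets of HMGCS1 stood at -0.91 in the fit over genes (limma adjusted p = 0.0251). On both probe sets, every NP value lay below every AP value.

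ACAT2, the cytosolic thiolase that joins acetyl-CoA units before the HMGCS1 step, read 8.27, 8.10 and 8.08 in NP cultures, against 8.58, 8.38 and 8.44 in AP cultures. Its groups did not overlap, with differences of -0.31, -0.29 and -0.36 between same-numbered cultures, and its shift of -0.32 ± 0.12 on the log2 scale (SE) did not pass (limma adjusted p = 0.309, block 0.118). FDPS, the farnesyl pyrophosphate synthase, read 10.01, 9.97 and 9.88 in NP cultures, against 10.03, 10.13 and 10.10 in AP cultures. These groups did not overlap either, at a small log2 fold change of -0.13 (limma adjusted p = 0.755).

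Between the HMGCS1 and FDPS steps, mevalonate kinase MVK stood at 0.03, phosphomevalonate kinase PMVK at 0.12, mevalonate decarboxylase MVD at -0.08 and the isomerase IDI1 at 0.09 on the log2 fold change scale. GGPS1, which makes the geranylgeranyl group for protein prenylation, stood at 0.12. None of these 5 passed, their adjusted p in limma lying between 0.805 and 0.966, and their groups overlapped. The 95% interval of MVK, from -0.23 to 0.28, was narrower than that of MVD, from -0.63 to 0.46, where both replicate 3 arrays read 5.40 (NP) and 5.45 (AP) and the other 4 between 4.61 and 4.84. The IDI1 probe set carries the suffix that marks probes able to bind related transcripts, so its value is uncertain.

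**Figure D1:**
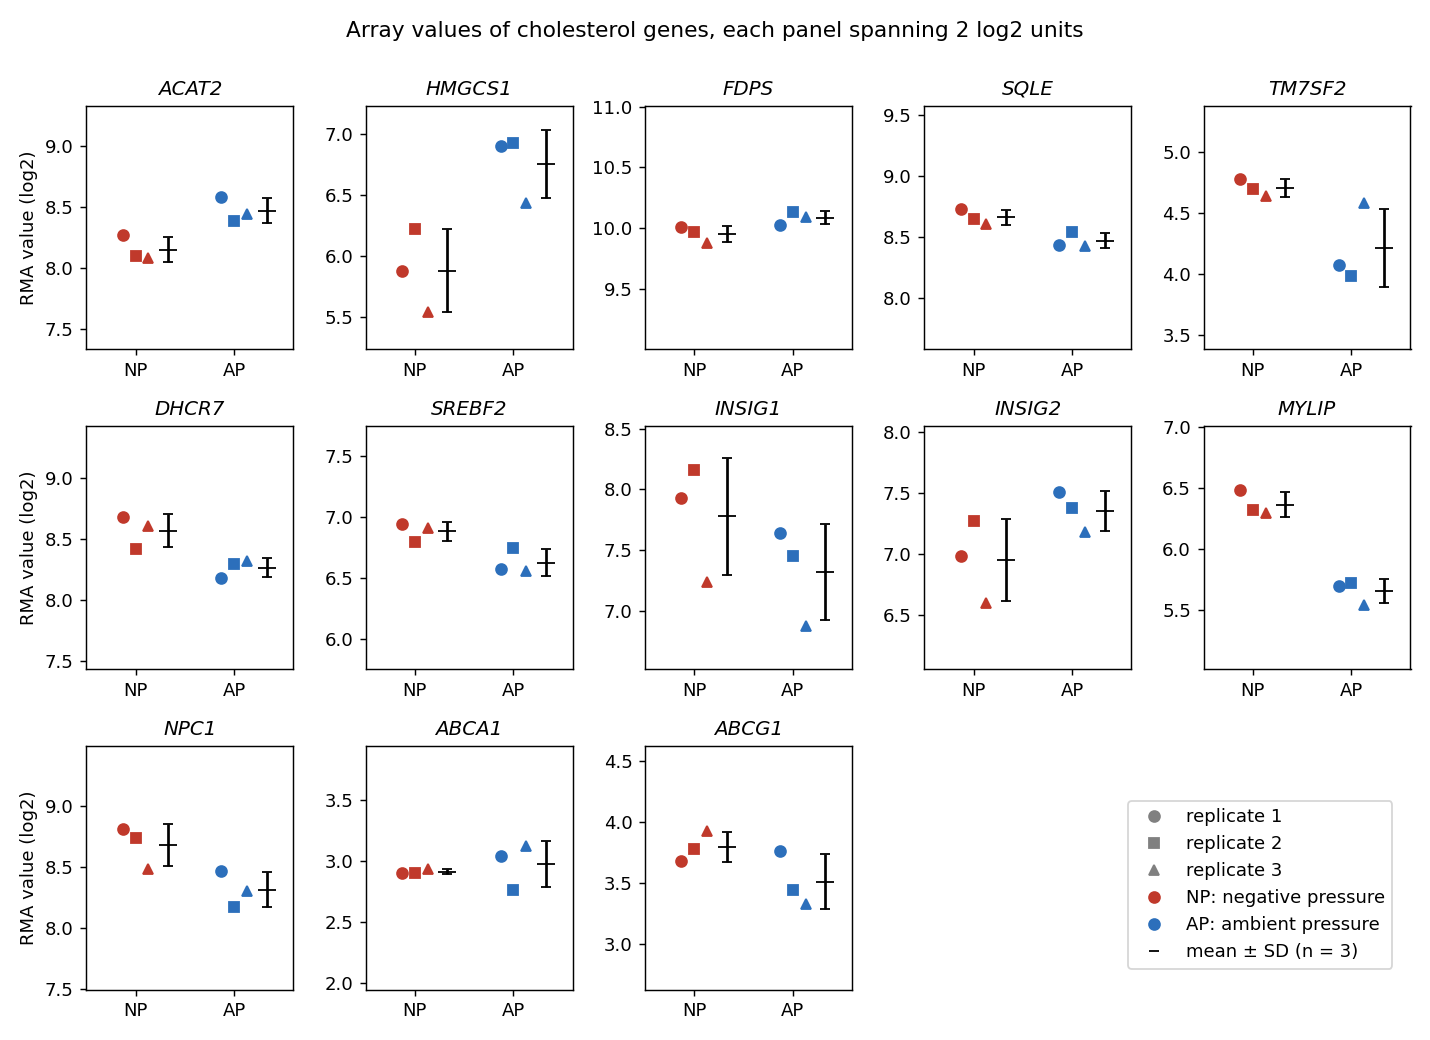
Array values (log2) of 13 cholesterol genes in the 3 NP cultures (red, left) and the 3 AP cultures (blue, right), with symbols for replicate 1, 2 and 3 and the mean ± SD beside each group. Every panel spans 2 log2 units; the groups do not overlap for ACAT2, HMGCS1, FDPS, SQLE, TM7SF2, DHCR7, SREBF2, MYLIP and NPC1, with the widest gap in MYLIP.

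In the sterol branch, 10 of 12 listed genes were measured and none passed in limma, where 3 had an unadjusted p under 0.05 (11.7% of all genes and 17.6% of those with a mean above the median). SQLE, squalene epoxidase, an oxygen-dependent and rate-controlling step, read 8.73, 8.65 and 8.61 in NP cultures, against 8.44, 8.54 and 8.43 in AP cultures. The groups did not overlap, yet the log2 fold change was only 0.19 ± 0.11 (SE; limma adjusted p = 0.568), with a 95% interval from -0.05 to 0.44. Of its 3 dimmer probe sets, 2 shared the sign (0.25 and 0.20) and 1 stood at -0.03.

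TM7SF2, a sterol reductase of the endoplasmic reticulum, read 4.78, 4.70 and 4.64 in NP cultures, against 4.08, 3.98 and 4.58 in AP cultures. AP culture 3 came close to the NP values, and the differences between same-numbered cultures were 0.71, 0.72 and 0.06. Its shift of 0.50 ± 0.16 on the log2 scale (SE) did not pass (limma adjusted p = 0.250, block 0.0677). Without both replicate 3 arrays TM7SF2 stood at 0.71 and passed (limma adjusted p = 0.0253), and with array weights at 0.68 (0.00705). LBR, the lamin B receptor, which carries the same reductase activity in the inner nuclear membrane, stood at -0.43 ± 0.23 (SE; limma adjusted p = 0.549). Its NP cultures ranged from 7.69 to 8.61 and its AP cultures from 8.45 to 8.83, with replicate 3 lowest in both groups. Without NP culture 3 LBR stood at -0.14, and without both replicate 3 arrays at -0.26.

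DHCR7, which catalyses the last reduction to cholesterol, read 8.68, 8.42 and 8.61 in NP cultures, against 8.18, 8.29 and 8.32 in AP cultures, without overlap. Its log2 fold change was 0.31 ± 0.12 (SE; limma adjusted p = 0.348), and its other probe set stood at 0.12. MSMO1, the methyl sterol oxidase, stood at 0.35 ± 0.15 (SE; limma adjusted p = 0.408), with positive differences of 0.10, 0.51 and 0.44 between same-numbered cultures. The remaining sterol enzymes were LSS, the cyclase that forms lanosterol, at -0.23, SC5D at 0.19, the demethylation enzyme NSDHL at -0.06, the isomerase EBP at 0.04 and HSD17B7 at 0.02. Their groups overlapped, and their adjusted p in limma ran from 0.624 to 0.983. The other probe set of NSDHL, at a mean of 6.45 against 6.85, stood at -0.40 (limma over all probe sets adjusted p = 0.451, block 0.117). That of SC5D, dim at a mean of 3.66, stood at 0.51 (0.423, block 0.169). The other probe sets of LSS stood at -0.12 and 0.02, and those of EBP between -0.26 and 0.03. The HSD17B7 probe set carries the same suffix as that of IDI1, and its value is uncertain for the same reason.

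**Figure D2:**
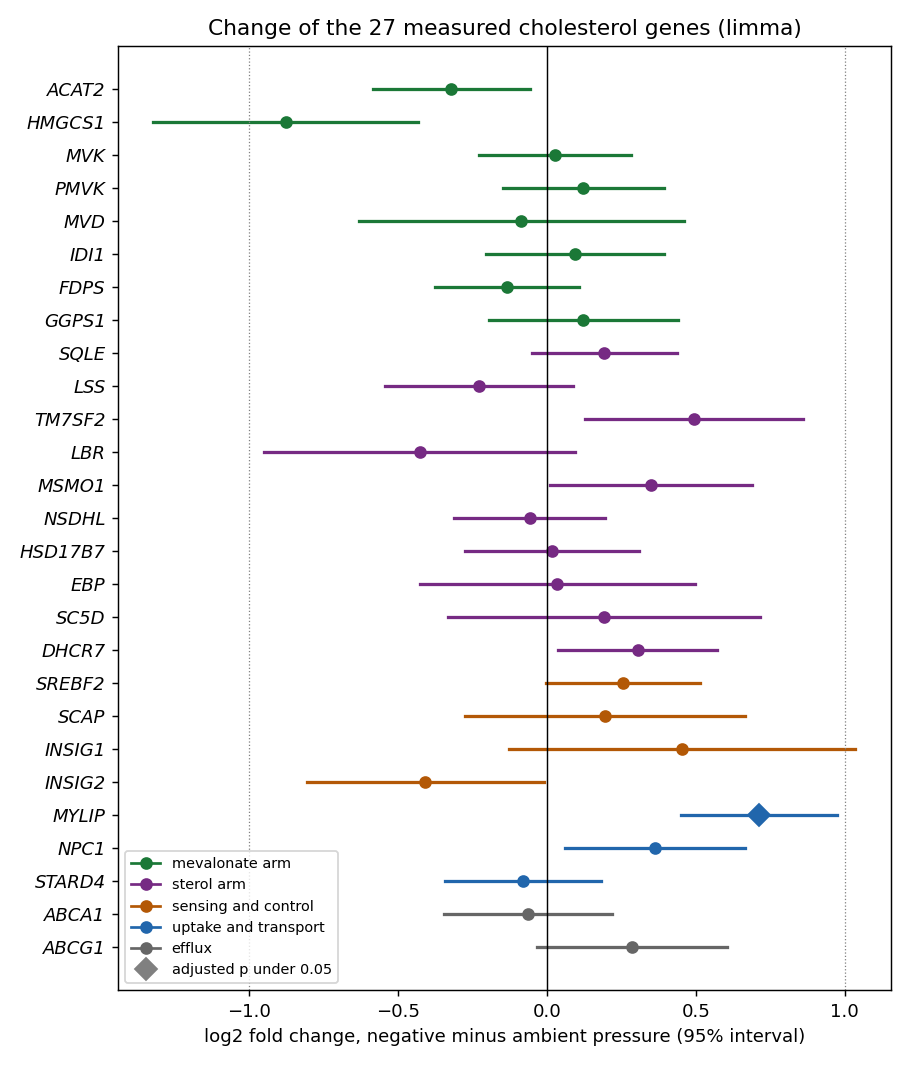
Log2 fold change (negative minus ambient pressure) of the 27 measured genes with 95% intervals from limma, coloured by role; dotted lines mark 2-fold. The intervals of HMGCS1 and INSIG1 reach past 2-fold, and the diamond marks MYLIP, the gene that passed the adjusted p.

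Among the genes that sense sterols, none of 4 passed in limma, where 1 had an unadjusted p under 0.05 (11.7% of all genes). INSIG1 read 7.93, 8.16 and 7.24 in NP cultures, against 7.64, 7.45 and 6.88 in AP cultures. Replicate 3 was the lowest culture in both groups and the groups overlapped. Each NP culture nonetheless read above the AP culture of its number, by 0.29, 0.71 and 0.36. The log2 fold change of INSIG1 was 0.45 ± 0.26 (SE; limma adjusted p = 0.579, block 0.0530), with a 95% interval from -0.13 to 1.04. It was 0.23 without AP culture 3, 0.26 without NP culture 2 and 0.72 without NP culture 3.

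The second brightest probe set of INSIG1 read 7.62, 7.55 and 7.59 in NP cultures, against 6.99, 7.19 and 6.76 in AP cultures, without overlap. It stood at 0.61 ± 0.13 (SE; limma over all probe sets adjusted p = 0.108, block 0.0416). The block called 2.27% of all probe sets. The dimmest of the 3 INSIG1 probe sets stood at 0.30, so all 3 lay above 0.

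INSIG2, the paralogue of INSIG1, read 6.98, 7.27 and 6.59 in NP cultures, against 7.51, 7.38 and 7.18 in AP cultures. Each NP culture read below the AP culture of its number, by differences of -0.53, -0.11 and -0.59, and the gene stood at -0.41 ± 0.18 on the log2 scale (SE; limma adjusted p = 0.415, block 0.0875), and at -0.23 without NP culture 3. SREBF2 read 6.94, 6.79 and 6.91 in NP cultures, against 6.58, 6.75 and 6.55 in AP cultures. The SREBF2 groups lay close without overlap, at 0.26 ± 0.11 (SE; limma adjusted p = 0.434), and its dimmer probe sets stood at 0.09 and 0.02. SCAP, the sterol-sensing escort, stood at 0.20 ± 0.21 (SE; limma adjusted p = 0.829).

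Differences between genes were compared within arrays, in 4 pairs chosen after the values were seen. The difference INSIG1 minus HMGCS1 was larger by 1.33 on the log2 scale in NP than in AP cultures, and INSIG1 minus INSIG2 by 0.86. SQLE minus HMGCS1 was larger by 1.07 and MYLIP minus HMGCS1 by 1.59. Each of the 4 gave p = 0.1 (exact two-sided permutation test, n = 3 each; adjusted p = 0.1), the smallest that 3 arrays against 3 allow, so this test cannot pass 0.05.

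**Figure D3:**
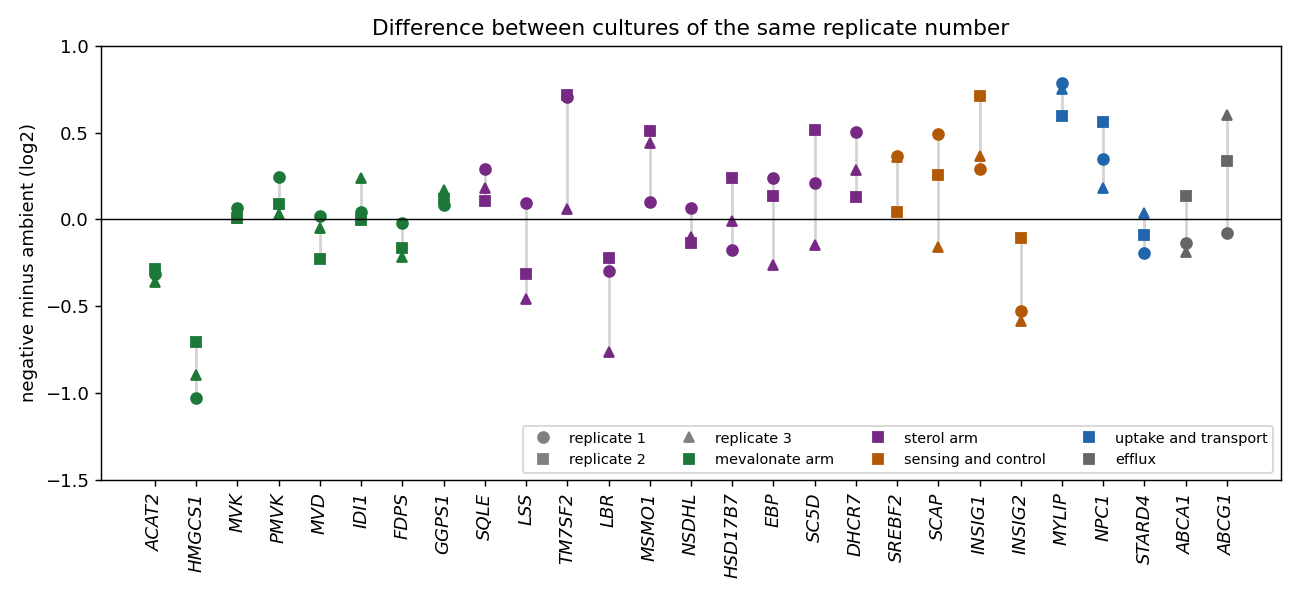
Difference (log2) between the NP and the AP culture of the same replicate number for each of the 27 genes, with a symbol per number and a colour per role. All 3 differences lie below 0 for HMGCS1, ACAT2, FDPS, LBR and INSIG2, and above 0 for MYLIP, INSIG1, MSMO1, DHCR7 and NPC1 among others, while TM7SF2 has 1 difference near 0.

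MYLIP read 6.48, 6.32 and 6.29 in NP cultures, against 5.70, 5.72 and 5.54 in AP cultures. The lowest NP value lay above the highest AP value, and the differences between same-numbered cultures were 0.79, 0.60 and 0.75. The mean was 6.37 ± 0.10 in NP cultures and 5.65 ± 0.10 in AP cultures (SD, n = 3 each). The gene rose by 0.71 ± 0.12 on the log2 scale (SE; limma adjusted p = 0.0299, block 0.00444). The rise was that of 1 probe set: of 5 dimmer ones, 1 stood at 0.31 without overlap between the groups, 3 lay between 0 and 0.03, and 1 stood at -0.23. The mean of all 6 stood at 0.14 (limma adjusted p = 0.711). The call was lost without NP culture 1 (adjusted p = 0.137), NP culture 2 (0.116), AP culture 1 (0.125), AP culture 2 (0.147) or AP culture 3 (0.0717), and stayed without NP culture 3 (0.0458).

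Of the other genes of uptake and transport, NPC1, which moves cholesterol out of lysosomes, read 8.81, 8.74 and 8.48 in NP cultures, against 8.47, 8.17 and 8.30 in AP cultures. Its groups were separated by a narrow margin, at 0.36 ± 0.13 (SE; limma adjusted p = 0.316), and its 3 other probe sets, all dim, lay between -0.19 and -0.01. With array weights NPC1 stood at 0.49 and passed (limma adjusted p = 0.0274). STARD4, a soluble sterol carrier, stood at -0.08 ± 0.12 (SE; limma adjusted p = 0.887).

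The efflux pumps were dim. ABCA1, which loads cholesterol onto apolipoproteins, read 2.90, 2.90 and 2.93 in NP cultures, against 3.04, 2.76 and 3.12 in AP cultures. The AP values enclosed the NP values, and the log2 fold change was -0.06 ± 0.13 (SE; limma adjusted p = 0.920). ABCG1, which exports cholesterol to lipoproteins, read 3.68, 3.78 and 3.92 in NP cultures, against 3.76, 3.44 and 3.33 in AP cultures. These groups overlapped at 0.29 ± 0.14 (SE; limma adjusted p = 0.497). All 8 probe sets of these 2 genes had means below the median gene mean of 4.997, between 1.83 and 3.65, so a change in either gene rests on weak signal.

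**Figure D4:**
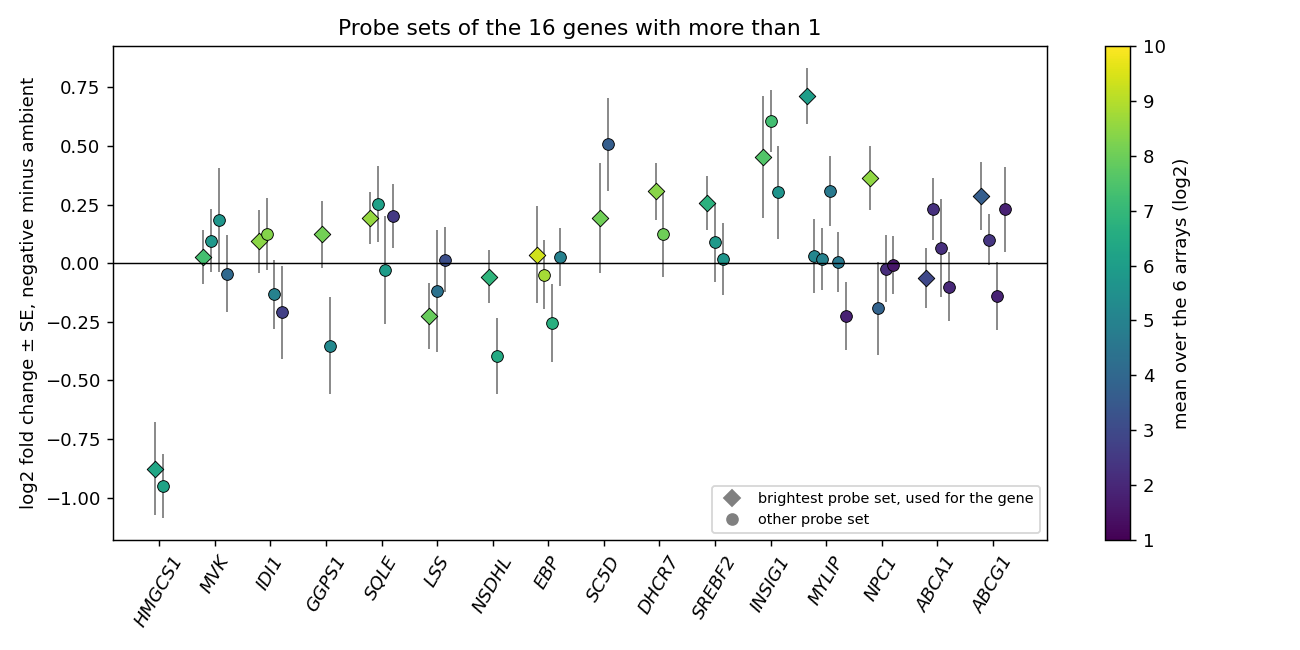
Log2 fold change ± SE (negative minus ambient pressure) of every probe set of the 16 genes with more than 1, with diamonds for the brightest and colour for the mean over the 6 arrays. Both HMGCS1 probe sets lie near -0.9 (-0.88 and -0.95) and all 3 of INSIG1 above 0, whereas the 6 of MYLIP run from -0.23 to 0.71.

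Across the set, 64 probe sets named 1 of the 27 genes alone, and 16 genes had more than 1. In 6 of these 16, all other probe sets had the sign of the brightest: HMGCS1, NSDHL, SC5D, DHCR7, SREBF2 and INSIG1. In the fit over all probe sets, the MYLIP probe set and the second one of HMGCS1 passed.

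The groups did not overlap for 9 of the 27 genes (33.3%), against 17.3% of all genes and 24.2% of the genes with a mean above the median, where 23 of the 27 lie. An unadjusted limma p under 0.05 was reached by 8 of the 27 (29.6%), against 11.7% of all genes and 17.6% of those above the median. The 95% intervals of 25 genes (92.6%) lay within 2-fold in either direction, as did 97.5% over all genes. On the brightest probe sets, replicate 3 was the lowest culture in both groups for 12 of the 27 (44.4%), HMGCS1, INSIG1, INSIG2 and MYLIP among them. The same held for 25.4% of all genes and 40.5% of those above the median, so the share in the set was close to that of the genes above the median. No share was computed for genes matched in brightness. Other probe sets could differ: replicate 3 was highest in both groups on the dimmest of INSIG1 (NP 6.24, AP 5.69) and on a dimmer one of MYLIP (NP 5.16, AP 5.14). All 3 differences between same-numbered cultures had 1 sign for 16 of the 27 (59.3%) and for 38.8% of all genes. The share among genes above the median was not computed for this count, and no label states the pairing.

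Of 61 further genes of sterol and isoprenoid biology, 55 were measured. None passed in limma, where 6 had an unadjusted p under 0.05, against 11.7% of all genes. With pairing by replicate number 2 of the 55 passed, 1 higher and 1 lower, against 4.94% of all genes, so neither count was above the share over all genes. SMPDL3A, an LXR target in human cells, read 5.44, 5.34 and 5.53 in NP cultures, against 4.92, 4.93 and 4.595 in AP cultures. The groups did not overlap, and SMPDL3A stood at 0.62 ± 0.13 (SE; limma adjusted p = 0.0742, block 0.0178). PGGT1B, a subunit of the enzyme that attaches geranylgeranyl groups to proteins, read 6.83, 6.96 and 5.95 in NP cultures, against 7.39, 7.34 and 6.74 in AP cultures. Replicate 3 was again lowest in both groups, and PGGT1B stood at -0.57 ± 0.27 (SE; limma adjusted p = 0.466, block 0.0185).

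Of the 9 measured LXR genes and targets none passed in limma and 4 had an unadjusted p under 0.05 (11.7% of all genes). The 4 were SMPDL3A, the receptor genes RXRA and RXRB at 0.40 and 0.35, and ABCA12, which was dim at a mean of 2.62. Of the same 9, 8 lay above 0 (53.4% of all genes) and the median was 0.23 on the log2 fold change scale. These counts depend on how the lists were drawn: ABCA1 (-0.06), ABCG1 (0.29), MYLIP (0.71) and SREBF1 were counted elsewhere. The receptor gene NR1H3 stood at 0.18 (limma adjusted p = 0.725). SREBF1, whose product drives fatty acid synthesis, stood at -0.34 (limma adjusted p = 0.448), against 0.26 for SREBF2. SOAT1, which esterifies cholesterol for storage, stood at -0.27 ± 0.39 (SE; limma adjusted p = 0.887), its NP cultures ranging from 6.59 to 8.18 and its AP cultures from 7.28 to 8.29. The 18 genes of storage, lysosomal release and transport had a median of 0.09, the 11 of dolichol, ubiquinone and prenylation one of -0.04, and the 9 other sterol enzymes one of -0.03. The 8 genes of SREBP processing, SREBF1 among them, had a median of 0.09.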

How the data were processed

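RNA of 3 HaCaT cultures under negative pressure and 3 at ambient pressure was measured on Affymetrix arrays, with groups and replicate numbers taken from the sample titles. The deposited values are log2 signals per probe set that the authors made with RMA, which corrects background and equalises arrays, and the submitters' processing notes name Affymetrix Expression Console 1.2 as software. Array batches are not given in the sources that were used.

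Of 54675 probe sets, 41091 had 1 gene symbol in the platform annotation, 1801 several and 11721 none, with 62 controls apart; 0 symbols needed an update through RefSeq. Each of 19775 genes was represented by its brightest probe set, with no filter on low values. Groups were compared with limma 3.58.1 (lmFit, eBayes; R 4.3.3) without a block, and p-values were adjusted over all genes by Benjamini-Hochberg with a threshold of 0.05; the fit was tested on simulated data. Adjusted p-values called "block" come from the same fit with the replicate number as a term. Deviations from the group means correlated at 0.27, 0.27 and 0.53 between same-numbered cultures, all over 0.1. Only the fit with the block treated the cultures as paired by number, as an alternative to the main fit. NP culture 2 correlated more with AP culture 1 (0.43) than with AP culture 2, so the values set replicate 3 apart and do not single out the other pairs; no label states a shared day. The number of arrays limits the precision.

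The genes and lists were chosen with earlier results of these data known. Of the 27 genes, values of every array are given for those past the threshold with or without the block, for those whose groups did not overlap, and for HMGCS1, SQLE, INSIG1, INSIG2, SREBF2, ABCA1, ABCG1 and MYLIP; other genes are given by their change. Of the further lists, genes past the threshold, SREBF1, NR1H3, SOAT1, RXRA, RXRB and ABCA12 are named. NR1H2 was not analysed here. Probe sets were fitted the same way over all probe sets. Promoter letters are from RefSeq. Alternatives were other normalizations, probe set choices, variance models, a filter at a mean of 3.5, and leaving out arrays.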

Additional observations from a re-analysis of the deposited data

How the results depend on the processing

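With the replicate block, 976 of all genes passed, 2 of the 27 cholesterol genes (MYLIP and HMGCS1), 2 of the 55 further genes and 2 of the 37 other probe sets, against 182, 1, 0 and 1 without it; it changed no other call among the results given. Array weights gave 1145, 4 (also TM7SF2 and NPC1), 5 and 3. Without both replicate 3 arrays the counts were 372, 3 (MYLIP, HMGCS1 and TM7SF2), 0 and 2. The probe set of largest variance left 0 of the 27 past the threshold, with MYLIP at an adjusted p of 0.0533 in limma, 8 of the 27 having had an unadjusted p under 0.05 with the brightest probe sets, and gave a median of 0.018, against 0.09. Leaving out 1 array gave 7 to 145 of all genes (18 without NP culture 1, 7 without NP culture 2 or AP culture 2, 12 without AP culture 1, 102 without AP culture 3), 0 to 1 of the 27, 0 to 1 of the other probe sets and a median of 0.067 to 0.12. Repeated quantile normalization, median centring, cyclic loess, trend and robust variance, and the filter kept MYLIP as the 1 call; with the mean of all probe sets the 1 call was HMGCS1. The cause of these moves was not tested.

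Signs turned for genes that passed under no setting run, except NPC1. With the mean of all probe sets IDI1 stood at -0.031, GGPS1 at -0.11, EBP at -0.060 and ABCA1 at 0.033. With the probe set of largest variance IDI1 stood at -0.21, GGPS1 at -0.35, SQLE at -0.029, NPC1 at -0.19 and ABCA1 at 0.065. Cyclic loess put MVK at -0.0031 and HSD17B7 at -0.013, and array weights ABCA1 at 0.049. Leaving out 1 array gave -0.015 to 0.079 for MVK, -0.33 to 0.14 for MVD, -0.023 to 0.16 for IDI1, -0.094 to 0.080 for HSD17B7, -0.10 to 0.28 for EBP and -0.17 to 0.0091 for ABCA1. Weak signal limits what can be said of ABCA1 and ABCG1. TM7SF2, at a mean of 4.46, and MVD, at 4.96, also lay below the median gene mean of 4.997. The 3 arrays per group limit every gene.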
